A study of Homo sapiens with 2 samples.

Results

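Axon guidance cues are secreted or membrane-bound ligands that steer growing axons, and epithelial and carcinoma cells use many of the same genes for contact, repulsion and migration. The genes described here are the 70 of 20263 in each deposited table whose names belong to the netrins and their receptors UNC5, DCC and NEO1, the semaphorins and plexins, the ephrins and Eph receptors, or the SLITs and ROBOs, 37 ligands and 33 receptors in all. They were picked by name, with the high ratio of NTN1 already known, so their values are a description and carry no test. RNA was sequenced from 2 cultures of Cal-27, a line established from an oral squamous tumour of the tongue. One was stably transduced with a scrambled control shRNA (sh-scramble) and the other with an shRNA vector against HIPK2 (GV-248-HIPK2-sh, labelled sh-HIPK2), a nuclear kinase, and both were kept in regular medium. The study's title names invasion and epithelial-mesenchymal transition as its interest, and the comparison asks which guidance genes differ between the control library and the one labelled HIPK2 shRNA. With 1 library per group there is no replicate check, so every value contrasts a pair of libraries, not the conditions behind them. In bulk RNA, fewer cells that express a gene and less RNA per cell cannot be told apart.

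For HIPK2 the tables list 110 control counts and 218 in the library labelled HIPK2 shRNA, or 4.01 and 8.06 CPM, while its deposited TPM was 1.63 and 0.873. Counts of the target thus contradict the label, TPM does not, and the second library is called the labelled library throughout. The libraries held 28064923 and 26450251 counts. All 12 squamous epithelial markers were expressed, from 5360 to 4791 CPM in sum, and KRT14 (log2 ratio -2.26 in CPM and -2.14 in TPM) was past 2-fold lower in the labelled library in both units. CDH1 was past it in CPM (-1.07) and not in TPM (-0.80). The other 10 were within 2-fold in CPM. Of all 12, 8 had a log2 ratio below 0 and 4 above it, DSP (0.47), DSG3 (0.38), ITGB4 (0.37) and TP63 (0.060). Neuronal markers summed to 24.9 and 20.0 CPM, with 4 of 12 expressed and 5, SNAP25, DCX, STMN2, ELAVL3 and ELAVL4, at 0 counts in both libraries. TUBB3 made most of that sum (21.7 and 15.5 CPM, ratio 0.714, 0.6285 to 0.810). SYT1 (31 and 14 counts, ratio 0.458, 0.225 to 0.886) was also lower in the labelled library. NEFL (8 and 35 counts, ratio 4.44, 2.02 to 11.1) and NEFM (9 and 32 counts, ratio 3.60, 1.68 to 8.59) were higher in it. Fibroblast markers summed to 18.7 and 22.0 CPM (3 of 10 expressed, DCN, PDGFRA, FAP and POSTN at 0), carried by COL1A1 (263 and 343 counts), COL1A2 (187 and 164) and PDGFRB (44 and 73). Leukocyte markers summed to 61.6 and 51.4 CPM (5 of 10 expressed, PTPRC, CD3E and SPI1 among those at 0), carried by CORO1A (642 and 452 counts), CD68 (634 and 558), CSF1R (231 and 238) and CD14 (136 and 88). Endothelial markers summed to 56.3 and 28.7 CPM (2 of 8 expressed, PECAM1, KDR, TEK and EMCN at 0), nearly all of it CDH5. The part of these levels in the results was not tested.

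Levels are TMM-scaled CPM (counts scaled to the effective library size), which compare 1 gene between the libraries, and deposited TPM, which correct for length and compare genes with each other. Reaching 1 CPM in either library counted as expressed, and 42 of the 70 guidance genes did. Of the other 28, 13 had 0 counts in both libraries, among them the netrin receptor DCC, and the other 15 had at most 21 counts in a library. A gene was called past 2-fold when log2 of the ratio of (CPM + 1) was at least 1 or at most -1. By this rule 8 expressed guidance genes were higher in the labelled library, where 3.26% of all expressed genes were, and 2 were lower, where 2.87% of all expressed genes were. As shares these are 19.0% and 4.76% of the 42. With the threshold at 1.5-fold 15 were higher and 4 lower, where 10.6% and 9.96% of all expressed genes were, and at 4-fold 4 were higher and 0 lower, where 0.525% and 0.406% were. NTN1, ROBO1, NTNG2 and SEMA6C reached 1 CPM only in the labelled library and NTNG1 and ROBO3 only in the control, so each of these 6 passed the filter through the library where it is high. The shares are therefore no sign that the group stands apart. The median log2 ratio was 0.32 over the 42 genes and 0.00023 over all expressed genes, with 31 of the 42 above 0 and 11 below. Among all expressed genes 5909 were above 0 and 5904 below. The 8 higher genes were NTN1, NEO1, UNC5B, SEMA4B, SEMA6B, EPHB3, EPHB6 and ROBO1, and the 2 lower ones were SEMA3B and NTNG1.

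**Figure D1:**
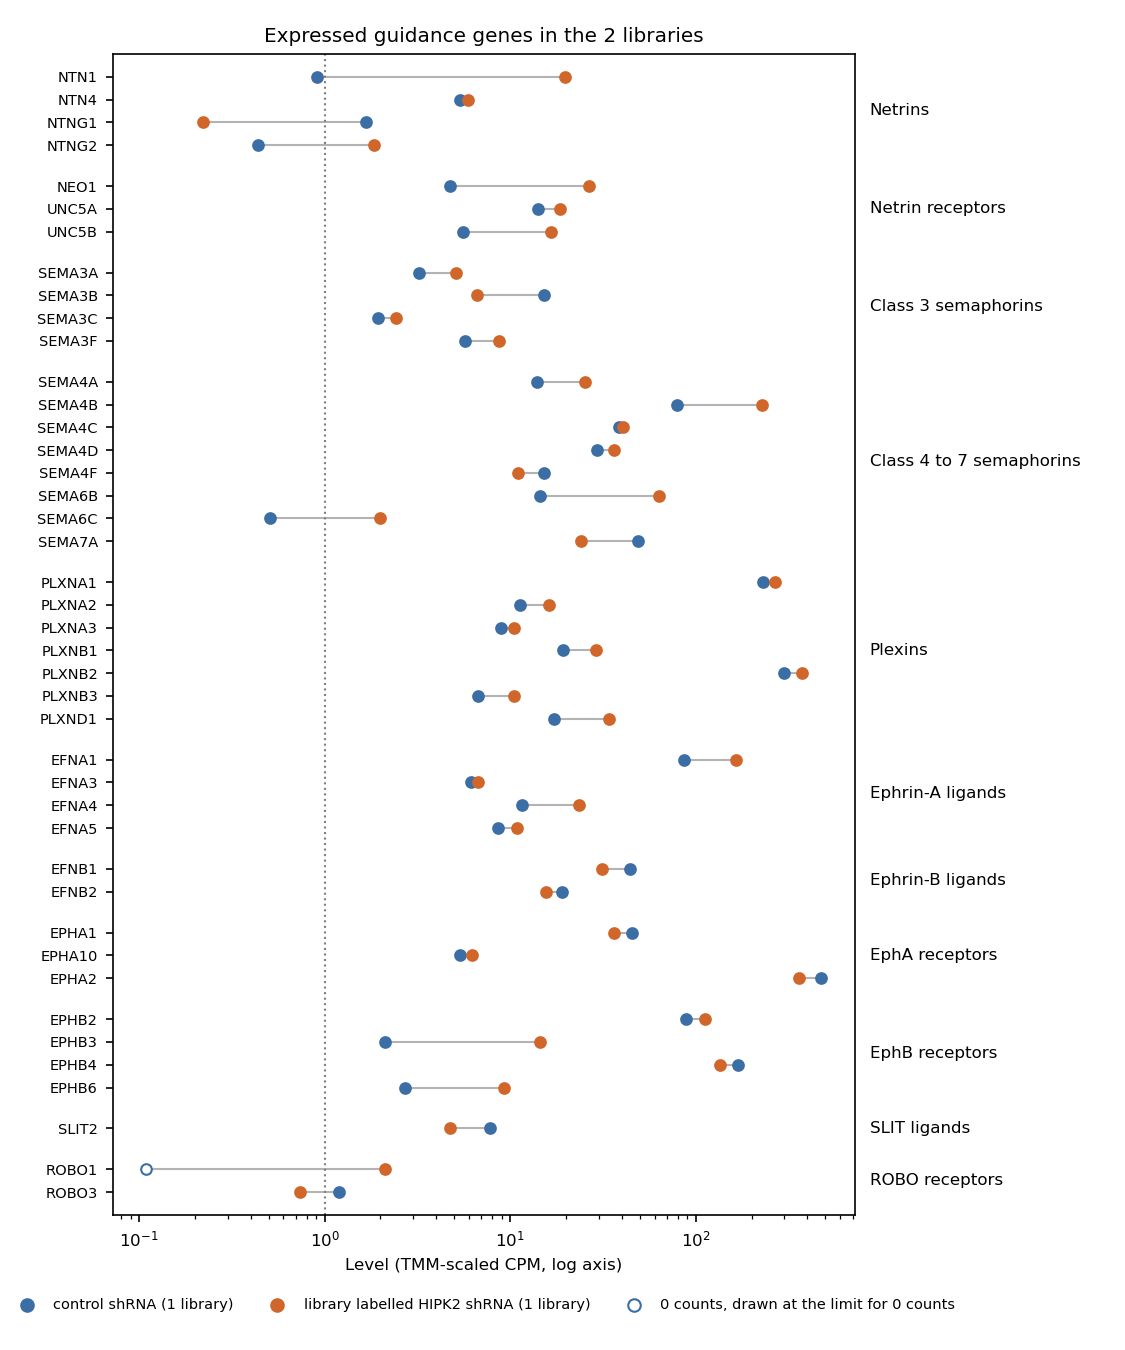
Level of each of the 42 expressed guidance genes in TMM-scaled CPM (log axis), grouped by family, with 1 point per library and a line joining them; the dotted line marks 1 CPM and the open point is a gene with 0 counts, drawn at the limit that 0 counts allow. NTN1, NEO1, EPHB3 and SEMA6B have the longest rightward lines among genes with control counts, and NTNG1 the longest leftward line.

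Netrins are laminin-related cues. NTN1, the secreted netrin-1, is known as an attractant or repellent in axons and as a survival ligand in tumours. NTN1 (ENSG00000065320, chromosome 17, 9021542 to 9244000, plus strand, build GRCh38) was covered by 25 control counts and 535 labelled-library counts. Its level was 0.911 CPM (95% counting interval 0.590 to 1.35) against 19.8 CPM (18.1 to 21.5). The ratio was 21.7 (14.5 to 33.8), the highest of the guidance genes with counts in both libraries. The intervals of the libraries do not overlap, but they cover counting error only. As the high NTN1 ratio was known when the genes were picked, this adds no support. In TPM it went from 0.208 to 5.56, and its share of all netrin TPM from 6.08% to 64.3%. NTN4, a secreted netrin of basement membranes, led the family in the control with 74.3% of netrin TPM. NTN4 had 147 and 161 counts, or 5.36 and 5.95 CPM, and its ratio of 1.11 had an interval from 0.882 to 1.40 that includes 1. The membrane-anchored netrins went opposite ways at low levels. NTNG1 (ENSG00000162631, chromosome 1, 107140007 to 107483458, plus strand) had 46 and 6 counts, 7.56-fold lower in the labelled library (3.22 to 21.7). NTNG2 had 12 and 50 counts, a ratio of 4.22 (2.22 to 8.71), and its log2 ratio of 0.99 stayed just under the 2-fold rule because of the pseudocount. NTN3 had 0 counts in both libraries and NTN5 had 2 and 0. Summed netrin TPM was 3.43 and 8.65.

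The netrin receptors that were expressed were higher in the labelled library. NEO1, neogenin, a receptor for netrins and for repulsive guidance molecules (ENSG00000067141, chromosome 15, 73051710 to 73305206, plus strand), had 130 and 716 counts. It went from 4.74 to 26.5 CPM, a ratio of 5.58 (4.63 to 6.78), and from 0.963 to 6.98 TPM. UNC5B, a dependence receptor that can signal cell death without ligand (ENSG00000107731, chromosome 10, 71212570 to 71302864, plus strand), had 152 and 451 counts. At 5.54 and 16.7 CPM, its ratio was 3.01 (2.50 to 3.64). UNC5A, of the same family and with exons that overlap HK3, had 388 and 503 counts, a ratio of 1.31 (1.15 to 1.5), which is under 2-fold. The makeup of the receptors therefore differed: UNC5A held 71.1% of their summed TPM in the control and 40.8% in the labelled library, while NEO1 held 13.2% and 38.9%. DCC, UNC5C and UNC5D had 0 counts in both libraries, which allows levels up to 0.109 and 0.111 CPM. Summed receptor TPM was 7.30 and 17.9, so that netrin TPM per receptor TPM was 0.470 and 0.482, nearly equal although both sums were over 2 times higher. The netrin sum pools all netrins, and NTN1 held 6.08% and 64.3% of it, so this quotient does not describe NTN1 alone.

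Semaphorins are ligands with a shared sema domain. Class 3 members are secreted and act through neuropilins and plexins, and several are known as inhibitors of tumour growth or vessels. SEMA3B, one such secreted member (ENSG00000012171, chromosome 3, 50267558 to 50277179, plus strand), had 415 and 180 counts. At 15.1 CPM (13.7 to 16.7) and 6.65 CPM (5.72 to 7.70), it was 2.27-fold lower (1.90 to 2.72), and the intervals do not overlap. Its neighbour SEMA3F, whose end lies 78.5 kb before the start of SEMA3B, went the other way, with 157 and 235 counts and a ratio of 1.52 (1.23 to 1.87). SEMA3F has an antisense neighbour, SEMA3F-AS1, and SEMA3B overlaps the microRNA gene MIR6872. In TPM the order of the pair was exchanged: SEMA3B held 66.3% of class 3 TPM in the control and 33.1% in the labelled library, and SEMA3F 23.9% and 45.1%. SEMA3A, the founding repellent of the class, was at 3.24 and 5.14 CPM, and SEMA3C at 1.93 and 2.44 CPM. The interval of the SEMA3C ratio (0.866 to 1.85) includes 1 and that of SEMA3A (1.2 to 2.09) does not. SEMA3D, SEMA3E and SEMA3G were under 1 CPM in both libraries.

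Classes 4 to 7 are held at the membrane, and SEMA4B was the most abundant of them. SEMA4B (ENSG00000185033, chromosome 15, 90160604 to 90229676, plus strand) had 2180 and 6128 counts, or 79.5 and 226.5 CPM. Its ratio was 2.85 (2.71 to 2.99), and it held 39.7% and 52.5% of the TPM of these classes. SEMA6B, a transmembrane ligand of class A plexins (ENSG00000167680, chromosome 19, 4542593 to 4559808, minus strand), had 396 and 1725 counts. It went from 14.4 CPM (13.1 to 15.9) to 63.7 CPM (60.8 to 66.8), 4.42 times higher (3.96 to 4.94), and from 5.07 to 25.2 TPM. Its share of the TPM was 4.76% in the control, under those of 6 other members, and 13.9% in the labelled library, where only SEMA4B had more. SEMA7A, a lipid-anchored semaphorin that signals through integrins and PLXNC1, was the member lower in the labelled library by the most here. SEMA7A had 1337 and 654 counts, or 48.7 and 24.2 CPM, 2.02-fold lower (1.84 to 2.22), with a log2 ratio of -0.98 that stayed just inside the 2-fold rule. Its share of the TPM was 19.8% and 5.17%, and its partner PLXNC1 had 12 and 6 counts.

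None of the other membrane semaphorins passed the 2-fold rule. SEMA4A, best known from immune cells, was at 13.9 and 25.4 CPM, a ratio of 1.83 (1.61 to 2.08). SEMA4D, the ligand of PLXNB1, was at 29.5 and 36.2 CPM (ratio 1.23, 1.12 to 1.35), and SEMA4C, a ligand of PLXNB2, at 38.8 and 40.5 CPM (ratio 1.04, 0.957 to 1.14). For SEMA4C that interval includes 1, so no difference was detectable at this depth. SEMA6C had 14 and 54 counts, a ratio of 3.91 (2.14 to 7.62), and missed the rule at a log2 ratio of 0.99 because of its low level. SEMA4F had 420 and 297 counts, a ratio of 0.717 (0.616 to 0.834), but its TPM was 5.29 and 5.91, the opposite direction. SEMA4G, SEMA5A, SEMA5B, SEMA6A and SEMA6D were under 1 CPM in both libraries, with at most 19 counts. Summed TPM of the membrane classes was 106.6 and 180.7, against 13.0 and 10.9 for class 3.

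Plexins are the large receptors that carry semaphorin signals to small GTPases. All 7 expressed plexins had a log2 ratio above 0 and none passed 2-fold. PLXNB2, a receptor of class 4 semaphorins (chromosome 22, 50274979 to 50307627, minus strand), had 8239 and 10133 counts, or 300.3 and 374.5 CPM, a ratio of 1.25 (1.21 to 1.28). It held 71.0% and 69.6% of plexin TPM. PLXNA1 came next, at 229.1 and 267.5 CPM (ratio 1.17, 1.13 to 1.21), with 21.4% and 20.8% of plexin TPM. These shares were nearly equal in the libraries. PLXND1, a receptor of class 3 semaphorins best known in vessels, was nearest to the 2-fold rule among plexins, with 473 and 920 counts and 17.2 and 34.0 CPM. Its ratio was 1.97 (1.76 to 2.21), a log2 ratio of 0.94. PLXNB1 had a ratio of 1.51 (1.35 to 1.69), PLXNB3 of 1.58 (1.31 to 1.91) and PLXNA2 of 1.42 (1.23 to 1.65). The PLXNA3 interval of 0.987 to 1.40 includes 1. PLXNB3 and PLXNA3 overlap exons of SRPK3 and LAGE3. PLXNA4 had 0 counts in both libraries. Semaphorin TPM per plexin TPM was 0.724 and 0.899.

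**Figure D2:**
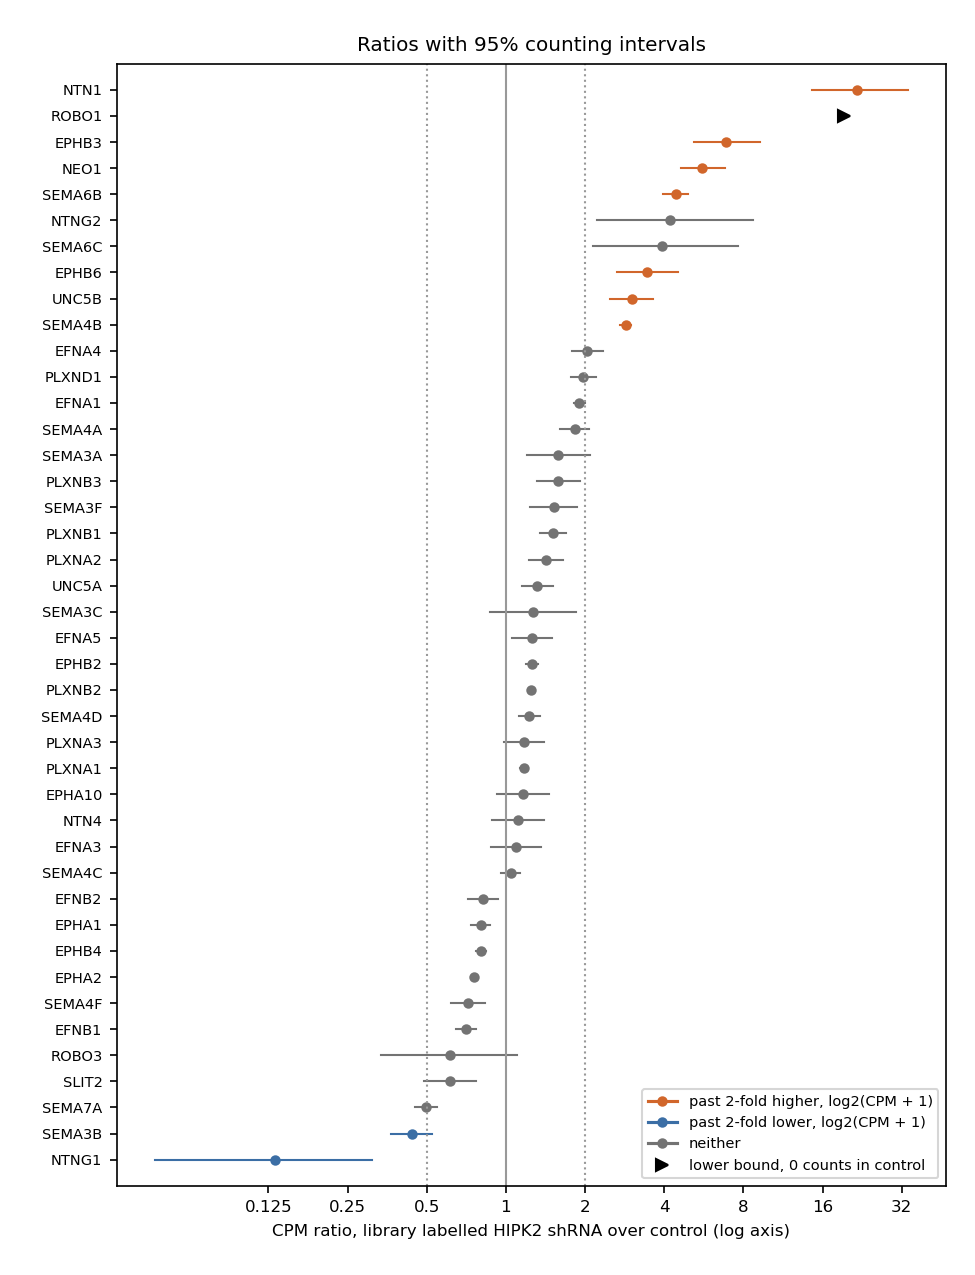
CPM ratio of the labelled library over the control (log axis) for the 42 expressed guidance genes, in order, with bars for 95% exact counting intervals; colours mark the genes past 2-fold on the log2 (CPM + 1) scale and the triangle is a lower bound for ROBO1, which had 0 control counts. Of the intervals, 25 lie above 1, 10 below 1 and 7 include 1, and they cover counting error only. The same count was not made for all expressed genes, so these numbers do not set the group apart.

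Ephrins are ligands tethered to the cell surface that signal on contact through Eph receptor tyrosine kinases, with A-type ligands mainly binding EphA and B-type ligands EphB receptors. All 4 expressed ephrin-A genes had a log2 ratio above 0 and both expressed ephrin-B genes one below 0, with none past 2-fold. EFNA1, the main ligand of EPHA2 in epithelia, had 2372 and 4456 counts, or 86.5 CPM (83.0 to 90.0) and 164.7 CPM (159.9 to 169.6). Its ratio was 1.90 (1.81 to 2.0), a log2 ratio of 0.92 in CPM and 1.0 in TPM. EFNA4 had 316 and 635 counts, or 11.5 and 23.5 CPM, a ratio of 2.04 (1.78 to 2.34) and a log2 ratio of 0.97. EFNA3 had 169 and 182 counts, or 6.16 and 6.73 CPM, and its interval (0.881 to 1.35) includes 1. These 3 genes stand in a row on chromosome 1 on the plus strand: EFNA4 (155063731 to 155069553), EFNA3 (155078872 to 155087538) and EFNA1 (155127460 to 155134857). The gene in the middle was thus the one that differed least, with gaps of 9.32 kb and 39.9 kb to its neighbours. EFNA3 and EFNA4 both share exons with AL691442.1, so reads in those exons can be counted for either gene. EFNA5 was at 8.60 and 10.8 CPM (ratio 1.26, 1.06 to 1.5), and EFNA2 had 0 counts in both libraries.

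EFNA4 and EFNA3 lie next to each other and differ in ratio, so the reference sequence before each start is given. RefSeq promoter sequences (GRCh38.p14) were matched for 60 of the 70 guidance genes; NTN1, SEMA6B and UNC5B are among the 10 without an entry. Each window is the 250 bases before the RefSeq start, at chr1:155063490-155063739 for EFNA4 and chr1:155078587-155078836 for EFNA3, both on the plus strand, and nothing was measured at these windows here. Capitals mark 5 motifs searched on both strands: the GC box (GGGCGG), the E-box CAGGTG, the CCAAT box, the TATA box (TATAAA) and the AP-1 site TGACTCA.
EFNA4: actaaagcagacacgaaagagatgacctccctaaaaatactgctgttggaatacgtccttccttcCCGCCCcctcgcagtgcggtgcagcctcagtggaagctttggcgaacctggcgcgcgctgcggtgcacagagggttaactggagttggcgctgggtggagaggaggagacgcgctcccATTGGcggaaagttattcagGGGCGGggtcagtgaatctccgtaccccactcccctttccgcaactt
EFNA3: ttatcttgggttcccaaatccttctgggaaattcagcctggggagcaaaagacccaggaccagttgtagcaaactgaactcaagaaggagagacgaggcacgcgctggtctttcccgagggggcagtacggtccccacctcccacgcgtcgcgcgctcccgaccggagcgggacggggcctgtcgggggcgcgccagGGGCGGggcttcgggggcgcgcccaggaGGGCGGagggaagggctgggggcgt
Each window holds 2 GC boxes, and EFNA4 also holds 1 CCAAT box, written ATTGG on this strand. G and C make up 58.4% of the EFNA4 window and 67.6% of the EFNA3 window. The GC box is common: it was found in 42.6% of all 35116 windows and in 44 of 57 windows (77.2%) of the expressed guidance genes, whose median G and C content was 68% against 58% for all windows. The E-box was found in 21.1% of those 57 windows and 17.5% of all, the CCAAT box in 31.6% and 32.0%, and the TATA box in 1.75% and 10.7%. The AP-1 site was found in 0 of the 57 and 4.20% of all. The 57 windows belong to 36 genes, so some genes count more than once. The 35116 windows were not filtered by expression, so these shares do not single out guidance genes. A match is a description of letters and not a sign of binding.

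EFNB1 and EFNB2, the transmembrane ephrins, were at 44.1 and 31.2 CPM and at 19.0 and 15.6 CPM. Their ratios were 0.706 (0.646 to 0.771) and 0.821 (0.720 to 0.935), and EFNB3 had 0 counts in both libraries. EFNB2 shares exon sequence with AL138689.2. Summed ephrin-A TPM was 86.0 and 167.4, and summed ephrin-B TPM 24.5 and 19.3. EFNA1 made up 74.3% and 77.1% of the first, so its makeup was nearly the same while its sum was 1.95 times higher.

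EPHA2, a receptor frequently abundant in carcinomas, had the highest TPM of the 70 genes in the control. It had 13027 and 9723 counts, or 474.9 CPM (466.8 to 483.1) and 359.3 CPM (352.2 to 366.5), 1.32-fold lower in the labelled library (1.29 to 1.36). In TPM it was at 167.9 and 136.2, where PLXNB2 at 148.3 stood above it in the labelled library. EPHA1, with exons that overlap ZYX, was at 45.1 and 36.1 CPM, 1.25-fold lower (1.15 to 1.36). EPHA10, a kinase-dead relative, was at 5.40 and 6.25 CPM, with an interval that includes 1 (0.923 to 1.45). EPHA4, EPHA5, EPHA7 and EPHA8 had 0 counts in both libraries, EPHA3 had 2 and 0, and EPHA6 had 0 and 7. Ephrin-A TPM per EphA TPM was 0.457 in the control and 1.08 in the labelled library, with summed EphA TPM at 188.1 and 155.1.

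The EphB receptors divided by level. EPHB4, the receptor of EFNB2 in vessels and the most abundant here, was at 168.7 and 135.0 CPM, 1.25-fold lower (1.20 to 1.30), and overlaps exons of SLC12A9. EPHB2, whose exons overlap the microRNA gene MIR4253, was at 89.1 and 111.9 CPM, 1.26 times higher (1.19 to 1.32). The 2 scarcest expressed EphB receptors had the largest ratios. EPHB3, a receptor known for cell positioning in intestinal crypts (ENSG00000182580, chromosome 3, 184561784 to 184582409, plus strand), had 58 and 393 counts. It went from 2.11 CPM (1.60 to 2.73) to 14.5 CPM (13.1 to 16.0), a ratio of 6.87 (5.20 to 9.21), the second highest with counts in both libraries. EPHB6, another kinase-dead relative (ENSG00000106123, chromosome 7, 142855061 to 142871094, plus strand), had 74 and 251 counts, or 2.70 and 9.28 CPM. Its ratio was 3.44 (2.64 to 4.52), while EPHA1, 520.0 kb further along the chromosome, was lower. EPHB3 and EPHB6 together remained minor: EPHB3 held 0.968% and 6.46% of EphB TPM and EPHB6 1.30% and 5.02%, against 76.0% and 59.2% for EPHB4. EPHB1 had 0 and 2 counts. Ephrin-B TPM per EphB TPM was 0.341 and 0.242.

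The window of EPHB3 (chr3:184561535-184561784, plus strand), shown because this gene had the highest ratio among those with a RefSeq entry and counts in both libraries, is 70% G and C. It holds 3 GC boxes and 1 CCAAT box, the first GC box sharing bases with the CCAAT box.
EPHB3: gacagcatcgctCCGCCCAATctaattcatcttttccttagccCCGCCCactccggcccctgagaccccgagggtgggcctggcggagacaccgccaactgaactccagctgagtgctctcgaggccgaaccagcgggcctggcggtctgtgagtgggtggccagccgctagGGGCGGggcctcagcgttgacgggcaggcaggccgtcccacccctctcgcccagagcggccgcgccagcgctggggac
Like the windows of EFNA4 and EFNA3 it holds no TATAAA and no TGACTCA on either strand.

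**Figure D3:**
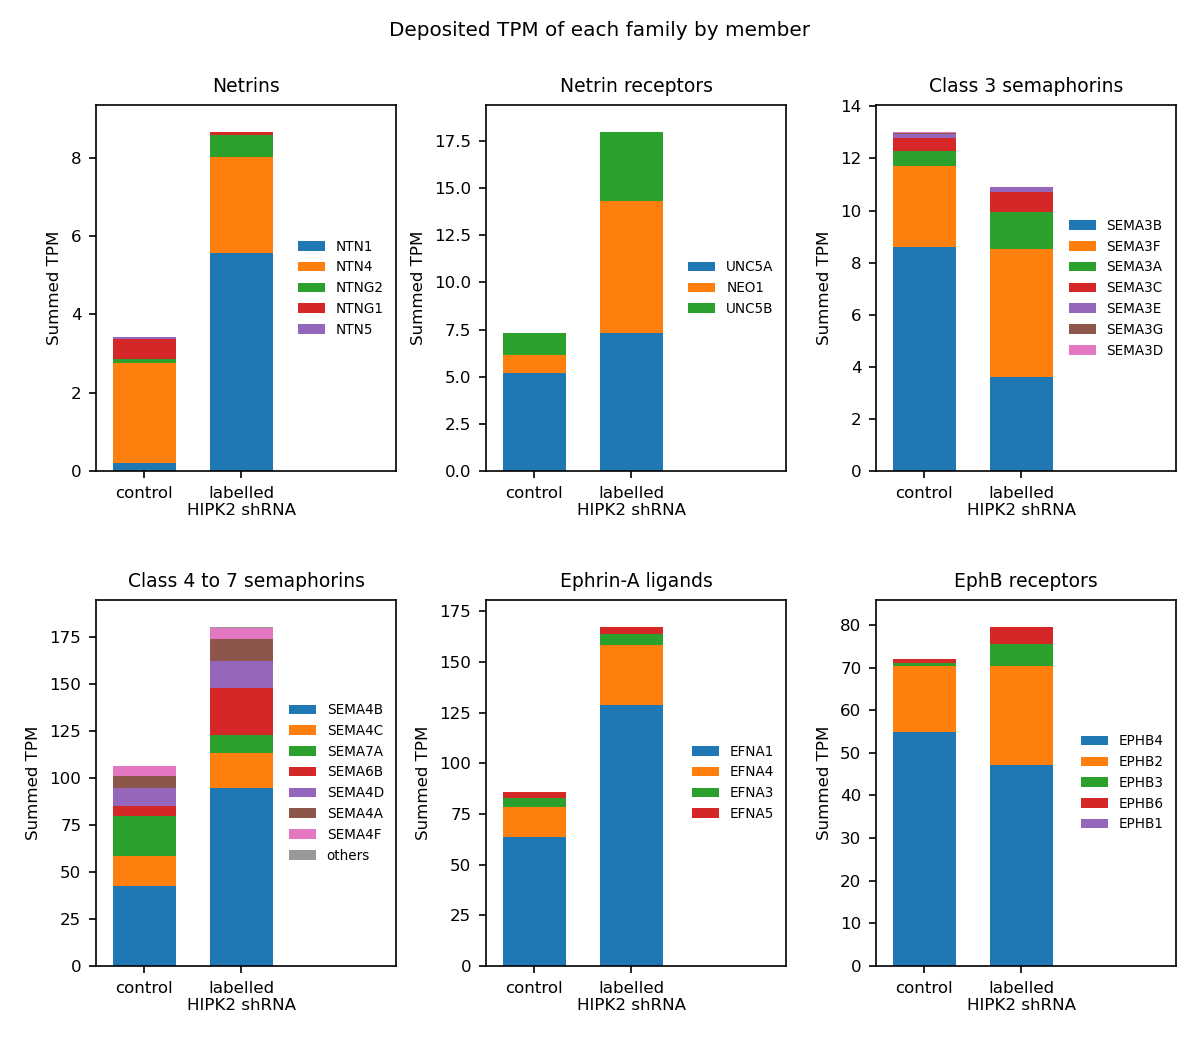
Summed deposited TPM of 6 families in the control and the labelled library (1 library each), stacked by member; each panel has its own axis from 0. NTN1 and NEO1 take larger parts of the right-hand bars of netrins and netrin receptors, SEMA3B a smaller part of class 3, and the ephrin-A bar is higher with nearly the same makeup.

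SLITs are secreted repellents and ROBOs their receptors. SLIT2 was the single expressed SLIT, with 213 and 129 counts, or 7.76 and 4.77 CPM, 1.63-fold lower in the labelled library (1.30 to 2.04). SLIT1 had 0 and 2 counts and SLIT3 had 2 and 0. ROBO1 (ENSG00000169855, chromosome 3, 78597240 to 79767815, minus strand) had 0 control counts and 57 in the labelled library, or 2.11 CPM (1.60 to 2.73). Against the limit of 3 counts in the control library this is at least 19.3-fold higher, and the lower end of the 95% counting interval of the ratio, which also covers error in the 57 counts, was 15.2. ROBO1 was listed at 0 TPM in the control and 0.411 TPM in the labelled library. ROBO3, a divergent member, had 33 and 20 counts with an interval that includes 1 (0.334 to 1.10), ROBO4, the endothelial member, had 2 and 0, and ROBO2 had 0 in both. The endothelial marker list was 56.3 and 28.7 CPM in sum, as given for the cell type check. Summed ROBO TPM was 0.462 and 0.651, the lowest of the receptor families.

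The deposited units gave the same picture for most members. Every expressed member except SEMA4F (log2 ratio -0.45 in CPM and 0.14 in TPM) and NTN4 (0.13 and -0.041) had the same sign in both units. In TPM 8 genes were past 2-fold higher and 2 lower, where 3.01% and 2.54% of all genes at 1 TPM or more were, and 7 of the 8 and 1 of the 2 were the same genes as in CPM. EFNA1 and SEMA7A passed only in TPM (log2 ratios of 1.0 and -1.10), and ROBO1 and NTNG1 only in CPM (TPM log2 ratios of 0.50 and -0.49). Both ROBO1 and NTNG1 were under 1 TPM in each library, where the 1 added to TPM pulls the log2 ratio towards 0. Count and FPKM together imply the transcript length used for each gene, and its ratio between the libraries was set to a median of 1 over 10342 genes with at least 50 counts in each. The ratio lay outside 0.8 to 1.25 for 9.99% of those genes and for 5 of the 36 guidance genes with such counts: SEMA4B (1.37), PLXNB3 (1.29), SEMA4F (0.687), SEMA3A (0.662) and EPHA10 (0.651). HIPK2 had 4.01. The CPM and TPM ratios differ by that length and by a scaling shared by all genes, by construction. SEMA4B was at 2.85 in CPM and 2.24 in TPM, and SEMA3A at 1.58 and 2.56. EPHA2, with a length ratio of 1, was at 0.757 in CPM and 0.811 in TPM. The median log2 ratio of all expressed genes was 0.00023 in CPM and 0.077 in TPM, so TPM ratios sit slightly higher as a whole. NEO1 (0.826), EPHB3 (1.0), SEMA6B (0.954) and UNC5B (1.01) were inside the limits of 0.8 to 1.25. The NTN1 value (0.872) was too, but with 25 control counts NTN1 is not among the 36 genes.

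**Figure D4:**
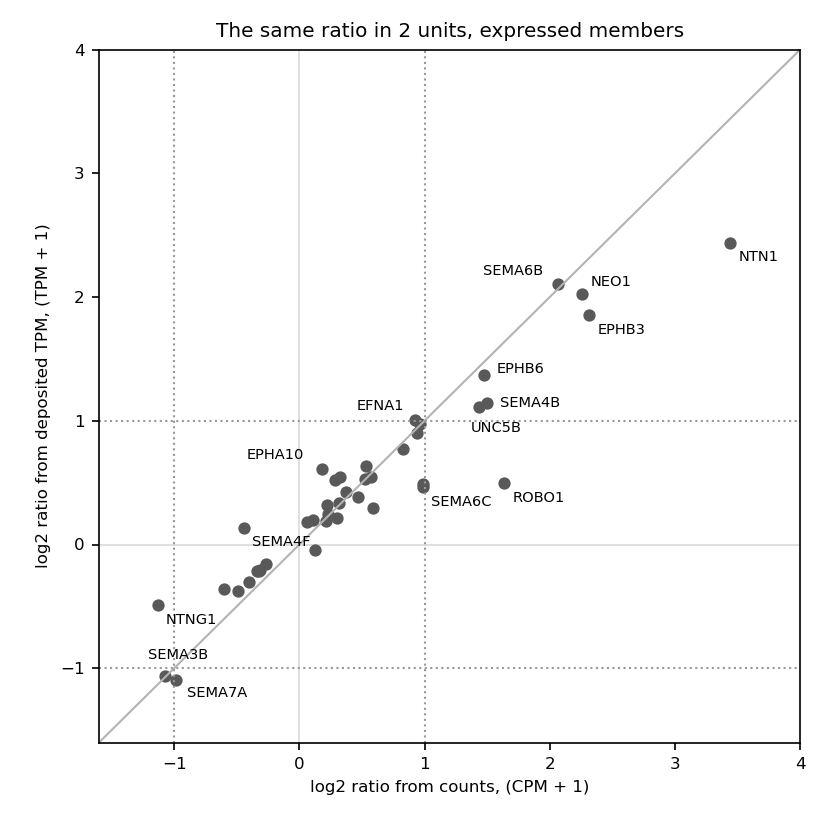
Log2 ratio from counts (x axis, CPM + 1) against log2 ratio from the deposited TPM (y axis, TPM + 1) for the 42 expressed guidance genes, 1 point per gene; the diagonal marks equal values and dotted lines the 2-fold rule. The points follow the diagonal, with NTN1, ROBO1 and SEMA6C below it and SEMA4F with a negative x and a positive y value. The added 1 weighs more on low TPM values. Without it the TPM and CPM ratios were 26.7 and 21.7 for NTN1 and 4.26 and 3.91 for SEMA6C.

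Genes that act with these ligands and receptors were mostly within 2-fold, as were 11089 of all 11813 expressed genes. Of all expressed genes, 3.26% were past 2-fold higher and 2.87% lower, the shares to set beside each list count below. None of 6 expressed semaphorin co-receptors passed the rule: NRP2 was at 28.7 and 19.2 CPM (1.5-fold lower, 1.34 to 1.67), NRP1 at 14.3 and 11.6 CPM (1.23-fold lower, 1.06 to 1.43), and CD109 at 21.0 and 24.9 CPM. Both neuropilins, which bind class 3 semaphorins, were lower in the labelled library. Of 16 expressed semaphorin and plexin effectors, 2 were past 2-fold higher and 0 lower, with a list median of 0.082. FARP1, a guanine nucleotide exchange factor that binds plexins, had 91 and 875 counts, a CPM ratio of 9.75 (7.85 to 12.2). Its TPM was 1.64 and 5.14, a ratio of 3.13 that lies below this interval, and its exons overlap STK24. The implied transcript length of FARP1 had a ratio of 3.34 between the libraries, outside the limits used for the guidance genes. FARP1 was past 2-fold higher in both units, but the size of its difference depends on the unit. RND2, a small GTPase of the Rnd group, had 15 and 71 counts (ratio 4.80, 2.72 to 9.02). Its TPM of 0.176 and 0.939, a ratio of 5.34, gave a log2 ratio of 0.72 after adding 1, which misses the rule. DPYSL3, a collapsin response protein, had 49 and 29 counts.

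Of 21 expressed Eph and ephrin effectors, 1 was lower and 0 higher, with a median of 0.15. The adaptor NCK2, which binds activated Eph receptors and ephrin-B, had 555 and 208 counts, or 20.2 and 7.69 CPM, 2.63-fold lower (2.24 to 3.10). Its TPM was 11.4 and 5.73, a log2 ratio of -0.88 that does not pass the 2-fold rule. The phosphatase PTPN12 was 1.64-fold lower (1.37 to 1.97), and the exchange factor ITSN2 had a CPM ratio of 1.65 (1.27 to 2.14) but a TPM of 1.97 and 1.79. Of 19 expressed netrin effectors and modulators, 1 was lower and 0 higher, with a median of -0.11. It was MCAM, an adhesion molecule reported as a netrin-1 receptor in endothelium, at 83.7 and 8.68 CPM, with exons that overlap CBL. NTN1 and MCAM thus lay at opposite ends of these genes. ITGA6, an integrin subunit that can bind netrins, was 1.88-fold lower (1.76 to 2.0), and the adaptor APPL1, which binds DCC, had a ratio of 1.99 (1.51 to 2.64).

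Of 15 expressed SLIT and ROBO effectors, 0 passed the rule (median 0.079). The proteoglycan SDC3 had a ratio of 1.87 (1.71 to 2.05), the exchange factor SOS2 one of 2.32 (1.60 to 3.41) from 42 and 96 counts, and USP33, which deubiquitinates ROBO1, one of 1.54 (1.27 to 1.87).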

How the data were processed

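RNA from 1 control and 1 HIPK2 shRNA culture of Cal-27 was sequenced as paired 150 bp reads, per the labels' protocols. FastQC and TopHat2 2.1.1 on GRCh38 (hg38) were used, per the submitters' processing notes; for the counting tool, annotation and strand setting, nothing is given in the sources used here. The deposited count is a whole number per gene, not normalized. The authors also deposited TPM and FPKM per gene, and FPKM served only for the transcript length it implies with the count. Counts of all 20263 genes were scaled to CPM by TMM (factors 0.977 and 1.02), computed with R 4.3.3 and its package edgeR 4.0.16. With a single library in each arm no test could be run. Log2 ratios used a pseudocount of 1. Ratios carry 95% exact binomial (Clopper-Pearson) intervals given the summed count, and levels exact Poisson intervals, from scipy 1.17.1. Both are computed from the counts of 1 library per arm and cover counting error alone. PCR copies of a molecule cannot be recognised, so the intervals may be too narrow. The limit for a gene with 0 counts was set at 3 counts. Exon overlaps come from GENCODE 29, and promoter windows overlapping annotated UTRs by over 30 bases are not printed. The scaling and the 2-fold rule were run on simulated counts with known folds. Those counts held counting error only, so they cannot speak to variation between cultures. Members, lists and alternatives were chosen with earlier results of these data known. Every expressed member is named, and in each other list the 3 expressed genes with the largest absolute log2 ratio. GRB4, an alias of NCK2, matched no row. The result of 1 further gene list is not reported here.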

Additional observations from a re-analysis of the deposited data

How the results depend on the processing

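Leave-one-out fits could not be made. No paired analysis was possible because neither arm has a second culture. The 8 higher and 2 lower members became 15 and 4 at 1.5-fold, and 4 and 0 at 4-fold, with the shares of all expressed genes given beside these counts in the results. The lower count was also 0 with a pseudocount of 5 (6 higher), where SEMA3B, NTNG1, EPHB6 and ROBO1 came inside the rule, 1 with a filter at 10 CPM, which removes NTNG1, and 1 without members sharing exons, which removes SEMA3B. With total counts or upper-quartile factors 12 were higher and 2 lower, EFNA4, PLXND1, NTNG2 and SEMA6C being added, while the median of all expressed genes moved to 0.061 and 0.065. With a pseudocount of 0.1, 11 were higher and 3 lower. All 10 called members kept their call under the 3 other scalings of counts. Of 317 member ratios under other settings, 274 lay within their counting interval and 43 outside it; SEMA4F and NTN4 changed sign, both in TPM, and no called member did. Of 60 family medians 16 moved outside their members' median intervals, 7 of them with no filter. Of 48 counts of other list genes past 2-fold, 7 moved: the semaphorin and plexin effectors went from 2 to 1 in TPM, with a pseudocount of 5 and with the 10 CPM filter, the Eph and ephrin effectors from 1 to 0 in TPM and with a pseudocount of 5, and with a pseudocount of 0.1 the netrin effectors from 1 to 3 and the SLIT and ROBO effectors from 0 to 1. Depth limits the low genes, where a single count equals 0.0365 or 0.0370 CPM.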
